A study of Homo sapiens with 6 samples.

Results

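The vascular guidance genes are the ephrins and their Eph receptors, the semaphorins and plexins, the SLIT ligands and ROBO receptors, and the UNC5 receptors. They were taken by symbol from the table of protein-coding genes, which gave 62 of 19755 genes. The 62 members are 8 ephrins, 9 EPHA receptors, 5 EPHB receptors, 7 secreted semaphorins of the SEMA3 class, 13 membrane-bound semaphorins (SEMA4 to SEMA7), 9 plexins, 7 SLIT or ROBO genes and 4 UNC5 genes.

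Ephrins are held on the cell surface and bind Eph receptor tyrosine kinases on a neighbouring cell, and both cells can receive a signal. Secreted SEMA3 proteins act mostly through plexins paired with neuropilins, membrane-bound semaphorins bind plexins directly, SLIT proteins bind ROBO receptors, and netrins bind UNC5 receptors. In blood vessels these families are known for steering sprouts, keeping arteries apart from veins (EFNB2 marks arteries and EPHB4 veins) and holding endothelial junctions together.

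RNA-seq was run on 3 LPS libraries, from cells given 1000 ng/ml lipopolysaccharide (LPS) for 12 h, and on 3 Control libraries, which the labels place at 12 h with no agent or vehicle named. LPS is the glycolipid that coats Gram-negative bacteria. All 6 are labelled EA.hy926, an established line made by fusing an umbilical vein endothelial cell with the lung carcinoma line A549, and also as umbilical vein endothelial cells. The labels do not settle which of these the cells were. Groups were read from the sample titles, since the treatment field is identical in all samples, and the genotype field reads WT in Controls. Nothing in the labels says that libraries of a group came from separate cultures, so a p-value here speaks only of the variation among these libraries, which could be technical in origin.

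Summed FPKM of protein-coding genes lay between 256047 and 264878 per library, and correlations of log2 values ranged from 0.971 to 0.976 within groups and from 0.962 to 0.974 between them. FPKM scales fragments to transcript length and to the number mapped, so levels of different genes are comparable per length, but the depth behind them is unknown. All 12 endothelial markers checked were above 0.5 FPKM on average, and their summed level was 465 to 606 FPKM in LPS libraries and 391 to 518 FPKM in Control libraries. Of 14 epithelial and A549 markers, 6 reached that level and 8 did not, NKX2-1 being listed at 0 throughout. The groups did not overlap for any of these 6 (100%, against 17.4% of all tested genes). Of the 6, 5 were lower with LPS at an unadjusted p under 0.05 (against 5.26% of all tested genes). The remaining 1 was higher in every LPS library. The list summed to 98.3 to 122 FPKM in LPS libraries and 137 to 147 FPKM in Control libraries. Of 14 fibroblast and smooth muscle markers 12 were tested. At an unadjusted p under 0.05, 1 was higher and 2 lower with LPS (25%, against 10.4% of all tested genes). The groups did not overlap for 4 of the 12 (33.3%, against 17.4%). The 14 markers summed to 4579 to 5021 FPKM in LPS libraries and 4678 to 5180 FPKM in Control libraries. Of 11 leukocyte markers 2 were tested and 6, PTPRC among them, were listed at 0, and the sums were 5.01 to 7.11 FPKM in LPS libraries and 4.38 to 8.94 FPKM in Control libraries. Whether these markers bear on the guidance genes was not tested.

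With LPS, several guidance genes stood apart between the groups by modest amounts, and the endothelial receptor ROBO4 and the ligand SEMA3C stood furthest apart by p. ROBO4, EFNB1, EPHB4, PLXNB1, PLXNA2 and EPHA4 were higher with LPS, and SEMA3C, EPHB6 and EFNA5 lower, at an unadjusted p under 0.05. For EPHA4 and PLXNB1 this depended on which transcripts were summed. The log2 change of EPHA4 turned to −0.14 without its short transcript EPHA4-214, and that of PLXNB1 was 0.0136 over coding transcripts alone, against 0.32 over all. EPHA4 also overlapped between the groups. The 9 genes were 25% of the tested members, against 10.4% of all tested genes. No member passed the threshold of an adjusted p under 0.05, where the lowest value was a limma adjusted p of 0.255 (ROBO4). Less RNA per cell and fewer cells of a type cannot be told apart in these bulk libraries.

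A gene was tested if its mean over the 6 libraries was at least 0.5 FPKM, which 36 of the 62 members met. Just inside that limit were EFNA3 (0.532 FPKM), SEMA4G (0.538 FPKM) and SEMA3A (0.699 FPKM), and just outside it EPHB1 (0.338 FPKM), EPHA5 (0.336 FPKM) and UNC5A (0.318 FPKM). By limma on log2(FPKM + 0.5), 0 of the 36 passed an adjusted p of 0.05, against 7 of 12068 protein-coding genes (0.058%). At an unadjusted p under 0.05 there were 9 members, or 25%, of which 6 were higher and 3 lower with LPS. The same held for 10.4% of all tested genes, 5.13% higher and 5.26% lower. In 10 of the 36 members (27.8%) the LPS values did not overlap the Control values, 6 higher and 4 lower, against 17.4% of all tested genes (8.68% higher and 8.73% lower). The count of 9 was 5 (14.3%) both without LPS 3 and without Control 1, against 10.1% and 9.91% of all tested genes. The 7 genes called over all became 0 without LPS 2, 2 without LPS 3, 4 without Control 1 and 0 without Control 2. The members' shares were thus above those of all genes, and the difference in shares was not tested.

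No tested member differed by 2-fold or more on the log2(FPKM + 0.5) scale. The same held for all but 1.04% of all tested genes, so this does not set the members apart. EPHB6 came closest at −0.82, with means of 1.95 FPKM with LPS and 3.97 FPKM in Controls. Its log2 change ranged from −1.14 to −0.53 over the alternatives run. The log2 change (LPS minus Control) was positive in 25 members (69.4%) and in 47.8% of all tested genes, with a median of 0.06 over members and −0.01 over all genes. The median absolute log2 change was 0.19 over members and 0.15 over all genes, beside a median standard error of 0.16 for both. Summed over all 62 members, the level was 504, 526 and 513 FPKM in the LPS libraries and 463, 507 and 470 FPKM in the Control libraries, so that LPS 1 lay below Control 2.

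**Figure D1:**
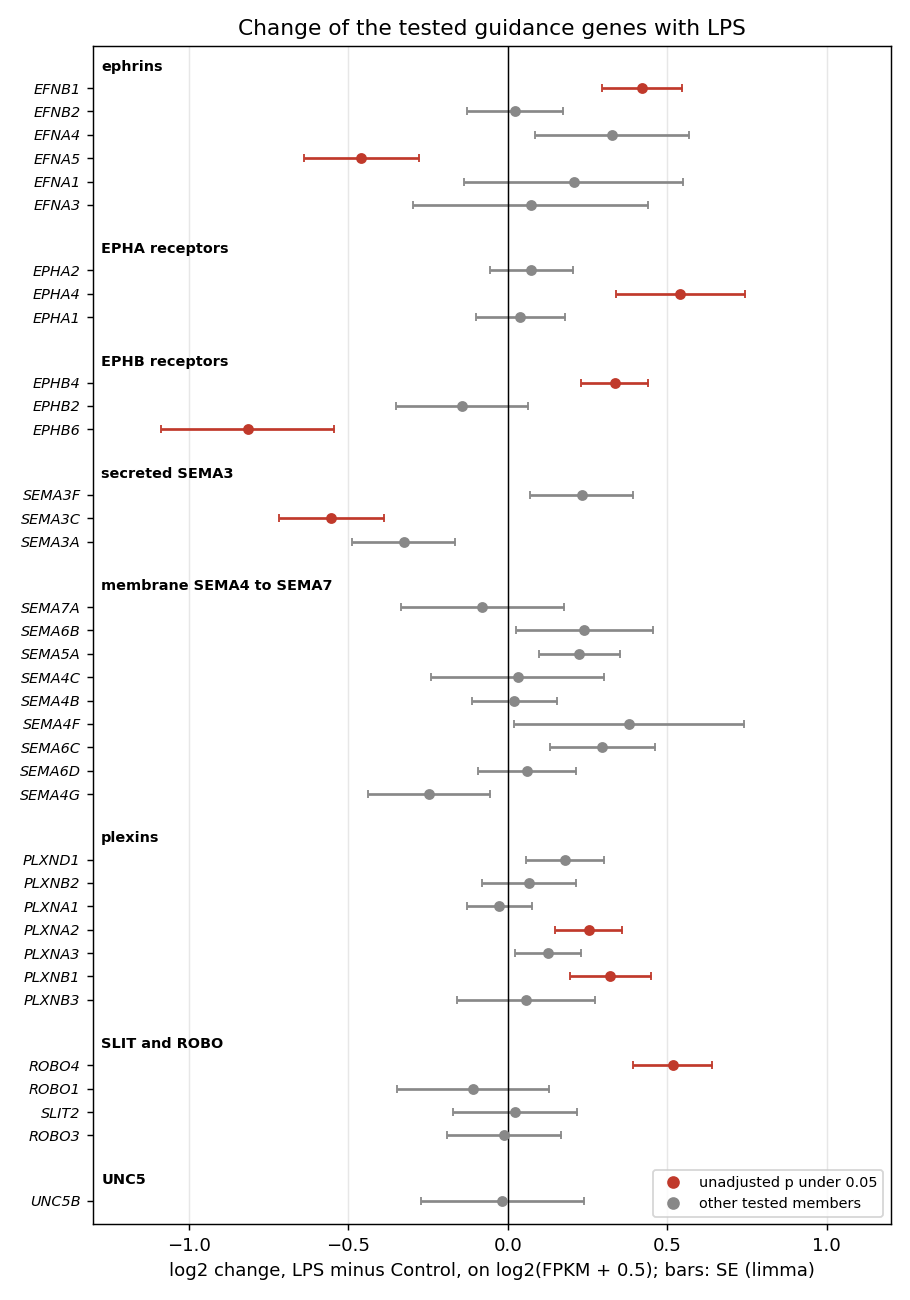
Log2 change (LPS minus Control, on log2(FPKM + 0.5)) of the 36 tested guidance genes by role, with points for the estimate and bars for its standard error from limma. The 9 red points, 6 to the right of 0 and 3 to the left, are genes at an unadjusted p under 0.05, and none of the 36 passed the adjusted threshold.

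The plexins PLXND1 and PLXNB2 were the most abundant members, at means of 68.7 and 68.6 FPKM, above 95.4% of tested protein-coding genes. PLXND1 is the endothelial plexin that receives SEMA3E, and PLXNB2 is a broadly expressed receptor of class 4 semaphorins. ROBO4 and UNC5B followed at 32.3 and 32.1 FPKM, then PLXNA1 at 31.0 FPKM. Their order was not separable, since the libraries of PLXND1 and PLXNB2 interleaved, as did those of ROBO4, UNC5B and PLXNA1. Coding transcripts held 86.7% of PLXND1 FPKM and 54.5% of PLXNB2 FPKM. Over these alone the means were 59.6 FPKM for PLXND1 and 37.4 FPKM for PLXNB2. SEMA7A (28.4 FPKM) and SEMA6B (25.3 FPKM) were the most abundant ligands of the set.

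**Figure D2:**
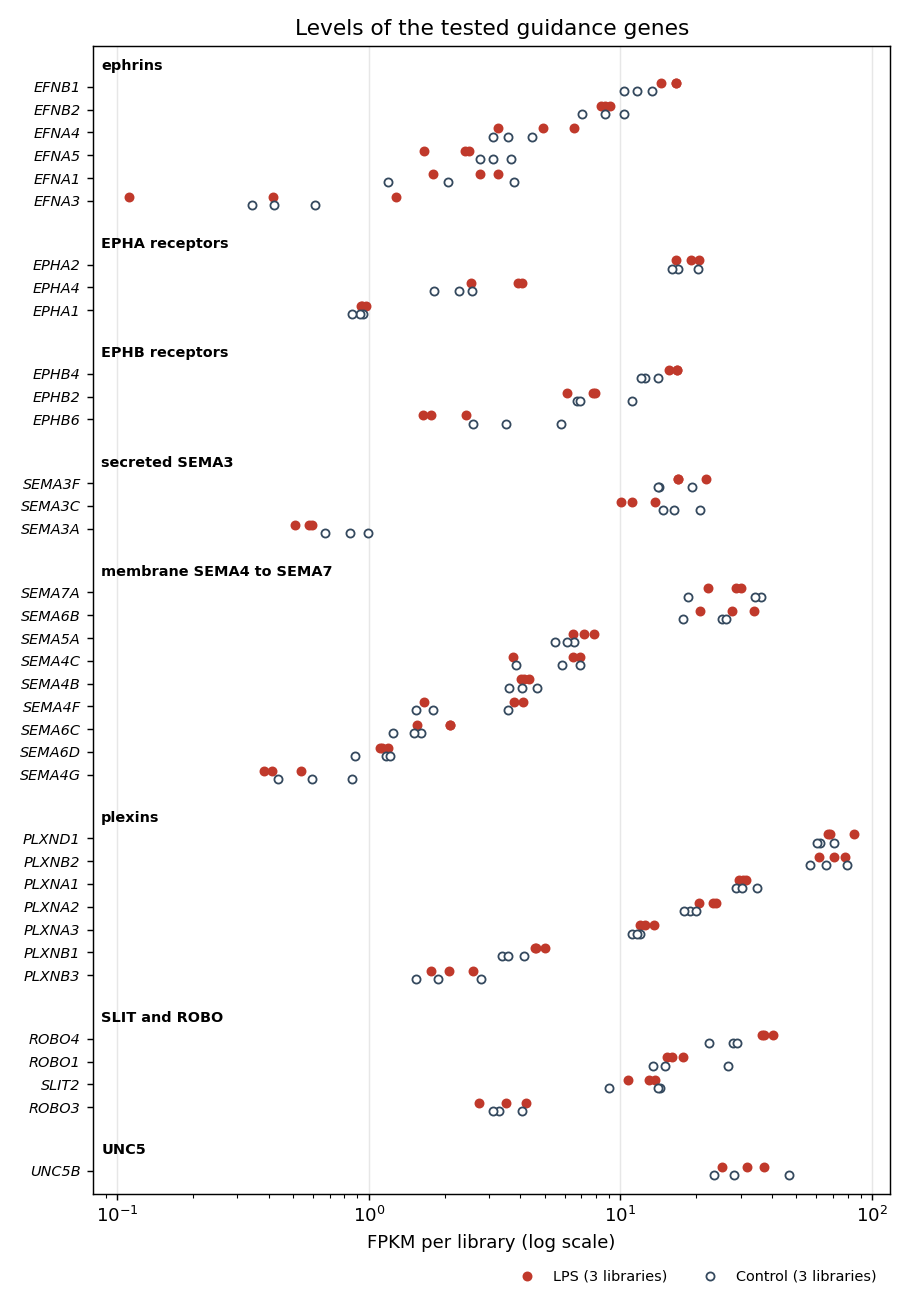
FPKM per library (log axis) of the 36 tested guidance genes, grouped by role, with filled points for the 3 LPS libraries and open points for the 3 Control libraries. Plexins hold the highest levels, up to 84.6 FPKM for PLXND1 in LPS 3, and most members overlap between the groups.

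Among the ephrins, EFNB1 was higher and EFNA5 lower with LPS at an unadjusted p under 0.05. EFNB1 (ENSG00000090776, GRCh38 chrX:68829021-68842160), a transmembrane ligand of EPHB receptors, stood at 16.6, 14.6 and 16.6 FPKM in LPS libraries and at 11.7, 13.4 and 10.3 FPKM in Control libraries. Every LPS value lay above every Control value, with the closest pair in LPS 2 and Control 2. Its log2 change was 0.42 (SE 0.13, limma adjusted p = 0.338). EFNA5, a lipid-anchored ligand, stood at 2.50, 2.42 and 1.66 FPKM in LPS libraries and at 3.12, 2.76 and 3.66 FPKM in Control libraries. The groups did not overlap, and the log2 change was −0.46 (SE 0.18, limma adjusted p = 0.446).

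EFNB2, the arterial ligand, did not separate the groups. It stood at 8.66, 8.37 and 9.09 FPKM in LPS libraries and at 8.65, 7.02 and 10.3 FPKM in Control libraries, with all LPS values inside the Control range. The log2 change was 0.02 (SE 0.15, limma adjusted p = 0.972), and its sign turned when single libraries were left out. EFNA1, EFNA3 and EFNA4, lipid-anchored ligands that lie in a row on chromosome 1, overlapped between groups, with log2 changes from 0.07 to 0.33. EFNA2 and EFNB3 were below the limit, at no more than 0.563 FPKM in any library. Summed over the 8 ephrins, the level was 34.8, 35.3 and 36.0 FPKM in LPS libraries and 32.4, 28.5 and 30.4 FPKM in Control libraries, without overlap. EFNB1 and EFNB2 made up most of that sum.

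EPHA2 was the most abundant EPHA receptor. It stood at 19.0, 20.5 and 16.7 FPKM in LPS libraries and at 16.9, 20.4 and 16.1 FPKM in Control libraries, which overlapped (log2 change 0.07, SE 0.13, limma adjusted p = 0.876). The EPHA2 change was 0.00934 without LPS 2, 0.0426 without Control 1 and 0.00692 without Control 3, but 0.15 without LPS 3 and 0.17 without Control 2, and it was 0.0372 over coding transcripts alone. EPHA4 (ENSG00000116106, GRCh38 chr2:221418027-221574202), a receptor that binds ephrins of both A and B classes, stood at 4.05, 2.54 and 3.91 FPKM in LPS libraries and at 1.82, 2.29 and 2.57 FPKM in Control libraries. LPS 1 and LPS 3 were high, whereas LPS 2 lay within the Control range. The log2 change was 0.54 (SE 0.20, limma adjusted p = 0.425).

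The EPHA4 difference lay in a short transcript, and the full-length transcript went the other way. EPHA4-214, a model of 3 exons and 558 bases, was at 2.36, 0.0786 and 2.33 FPKM in LPS libraries and at 0.0641, 0.0731 and 0.119 FPKM in Control libraries, so that LPS 1 and LPS 3 alone exceeded 0.2 FPKM. EPHA4-201, the full-length form of 18 exons and 6346 bases, was at 1.05, 0.941 and 0.946 FPKM in LPS libraries and at 1.51, 1.54 and 1.70 FPKM in Control libraries. These groups did not overlap (log2 change −0.49, SE 0.19, limma adjusted p = 0.741 over all transcripts). Without the FPKM of EPHA4-214, an alternative chosen after seeing the data, the EPHA4 gene was at 1.69, 2.46 and 1.58 FPKM in LPS libraries and at 1.75, 2.21 and 2.45 FPKM in Control libraries. Its log2 change was then −0.14 (SE 0.19, limma adjusted p = 0.832), so the direction turned. The value left in LPS 2 includes 1.26 FPKM of the noncoding EPHA4-211, named after its values were seen. EPHA4-211 was at no more than 0.187 FPKM in any other library.

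The 448 coding bases of EPHA4-214 are all shared with EPHA4-201, and GENCODE 29 marks the model's 3′ end as not found. The place where it stops is shown because the gene's value turns on which model fragments were assigned to. The stretch is on the minus strand of GRCh38 at chr2:221564076-221564135, inside a coding exon of EPHA4-201 at chr2:221563731-221564394. Capitals mark the last 30 bases of EPHA4-214, and lower case the next 30 bases of EPHA4-201.
EPHA4: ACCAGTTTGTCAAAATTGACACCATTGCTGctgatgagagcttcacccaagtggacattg

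EPHA1, near the limit of testing, was at 0.861 to 0.974 FPKM over the 6 libraries and overlapped between groups. Of its FPKM, 98.8% came from a noncoding transcript of 651 bases, EPHA1-202, and 1.23% from coding transcripts. That transcript overlaps ZYX on the opposite strand, a gene at 126 FPKM, and without a stated counting strand the reads of both cannot be told apart. EPHA3, EPHA5, EPHA7 and EPHA10 were below the limit, at no more than 0.449 FPKM in any library, and EPHA6 and EPHA8 were listed at 0 in all 6. EPHA7 was listed at 0.00398, 0.00427 and 0 FPKM in LPS libraries and at 0.0114, 0.0331 and 0.0708 FPKM in Control libraries. These values did not overlap but were too low to test.

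Among EPHB receptors, EPHB4 was higher and EPHB6 lower with LPS at an unadjusted p under 0.05. EPHB4 (ENSG00000196411, GRCh38 chr7:100802565-100827523), the venous receptor of EFNB2, stood at 16.8, 16.8 and 15.6 FPKM in LPS libraries and at 14.1, 12.5 and 12.1 FPKM in Control libraries. All LPS values lay above all Control values, with a log2 change of 0.34 (SE 0.11, limma adjusted p = 0.351). EPHB6 (ENSG00000106123, GRCh38 chr7:142855061-142871094), a receptor whose kinase domain is inactive, stood at 1.65, 2.43 and 1.77 FPKM in LPS libraries and at 2.59, 3.50 and 5.82 FPKM in Control libraries. The groups did not overlap, Control 3 stood highest, and the log2 change was −0.82 (SE 0.27, limma adjusted p = 0.364). Without Control 3 it was −0.53. EPHB2 overlapped, at 7.28 ± 0.989 FPKM with LPS and 8.25 ± 2.47 FPKM in Controls (SD, n = 3 each), and EPHB1 and EPHB3 were below the limit at no more than 0.885 FPKM in any library.

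The ratio of arterial ligand to venous receptor was compared within libraries, which needs no scaling between them. The log2 ratio of EFNB2 to EPHB4 was −0.92, −0.96 and −0.75 in LPS libraries and −0.68, −0.79 and −0.22 in Control libraries. LPS 3 lay between the Control values, so the groups overlapped. Coding transcripts made up 38.5% of EPHB4 FPKM and 80.1% of EFNB2 FPKM. Over coding transcripts alone the means were 6.96 FPKM for EFNB2 and 5.65 FPKM for EPHB4, the reverse order. The sign of the ratio thus depends on the transcripts summed. The means were −0.88 ± 0.11 with LPS and −0.56 ± 0.30 in Controls (SD, n = 3 each), a difference of −0.31 with p = 0.2 by a two-sided exact permutation test, whose smallest possible p is 0.1 with these group sizes.

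The upstream sequences of EFNB1 and EPHB4, chosen among the members of lowest p and not as a pair, are shown for the composition of their start regions. The windows of ROBO4 and SEMA3C, which had a lower p, lie in GENCODE UTR over all 250 bases and are not shown. Of the EFNB1 window, 24 bases are GENCODE UTR. Each is the 250 bases before the RefSeq start on GRCh38.p14, at chrX:68828771-68829020 on the plus strand for EFNB1 and chr7:100827524-100827773 on the minus strand for EPHB4. Capitals mark GGAA, the core of ETS factor motifs, on either strand (TTCC on the other strand).
EFNB1: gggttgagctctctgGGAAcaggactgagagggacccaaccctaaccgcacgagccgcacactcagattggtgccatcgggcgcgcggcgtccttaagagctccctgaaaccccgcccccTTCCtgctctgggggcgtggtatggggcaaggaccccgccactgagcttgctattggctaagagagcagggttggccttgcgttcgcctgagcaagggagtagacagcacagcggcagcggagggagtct
EPHB4: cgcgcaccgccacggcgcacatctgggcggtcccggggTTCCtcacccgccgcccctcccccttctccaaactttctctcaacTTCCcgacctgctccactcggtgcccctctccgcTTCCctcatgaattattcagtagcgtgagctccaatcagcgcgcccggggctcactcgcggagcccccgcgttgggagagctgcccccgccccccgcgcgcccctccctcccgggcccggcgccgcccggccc

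EFNB1 held 2 GGAA matches and EPHB4 held 3, in sequences of 63.6% and 72.8% GC, beside a median of 58.0% GC over 35116 RefSeq windows of the same length. GGAA is found in 92.7% of those windows. The GC-box motif GGGCGG occurred 1 time in EFNB1 and 4 times in EPHB4 and is found in 42.6% of windows. TGANTCA (the AP-1 site, 6.57% of windows) and the NF-kB consensus (9.96%) had no match in these letters, all searched on both strands, where a GGAA may lie inside an NF-kB match. Of the 62 members, 55 were matched in the RefSeq table. The window of EPHB4 lies within the span of SLC12A9, a gene of the opposite strand at 8.02 FPKM.

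SEMA3C and SEMA3A, both secreted, were lower in every LPS library. SEMA3C (ENSG00000075223, GRCh38 chr7:80742538-80922359), a ligand of neuropilins and plexins known from outflow tract development in the mouse, stood at 13.7, 11.1 and 10.0 FPKM in LPS libraries and at 16.4, 14.8 and 20.7 FPKM in Control libraries. The groups did not overlap, and LPS 1 and Control 2 were the closest pair. The log2 change was −0.55 (SE 0.17, limma adjusted p = 0.338). SEMA3A, a repellent of axons and endothelial cells, stood at 0.579, 0.597 and 0.509 FPKM in LPS libraries and at 0.673, 0.994 and 0.844 FPKM in Control libraries, with a log2 change of −0.33 (SE 0.16, limma adjusted p = 0.530). It lay close to the limit of testing.

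SEMA3F, a ligand of neuropilin NRP2, was the most abundant of the class. It stood at 17.0, 21.9 and 16.9 FPKM in LPS libraries and at 14.2, 19.2 and 14.1 FPKM in Control libraries, where replicate 2 was the highest of each group and the groups overlapped (log2 change 0.23, limma adjusted p = 0.660). Without LPS 2 the SEMA3F change was 0.11, and without Control 2 it was 0.37. SEMA3D, below the limit, was higher in every LPS library, at 0.376, 0.345 and 0.285 FPKM against 0.272, 0.151 and 0.159 FPKM in Control libraries. SEMA3B, SEMA3E and SEMA3G were also below it, at no more than 0.309 FPKM in any library. SEMA3C, SEMA3E, SEMA3A and SEMA3D lie in that order on chromosome 7, with 2440879 bases between SEMA3C and SEMA3E. Of these 4, SEMA3C and SEMA3A were lower in every LPS library, the untested SEMA3D was higher, and SEMA3E overlapped. Among all tested genes, 8.73% were lower and 8.68% higher in every LPS library.

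None of the 9 tested membrane-bound semaphorins stood apart between the groups. SEMA7A, a lipid-anchored ligand of integrins and PLXNC1, was at 28.7, 22.3 and 30.2 FPKM in LPS libraries and at 36.0, 18.5 and 34.4 FPKM in Control libraries, replicate 2 being the lowest of each group. SEMA6B was at 27.5 ± 6.66 FPKM with LPS and 23.1 ± 4.69 FPKM in Controls, and both groups overlapped (SD, n = 3 each). SEMA4F was at 3.18 ± 1.33 FPKM with LPS and 2.31 ± 1.10 FPKM in Controls, and SEMA6C at 1.92 ± 0.314 FPKM with LPS and 1.46 ± 0.190 FPKM in Controls. The log2 change of SEMA4F was 0.38 with SE 0.36 (limma adjusted p = 0.752). It moved with single libraries, being 0.18 without LPS 1, 0.23 without LPS 3 and 0.19 without Control 2, but 0.73 without LPS 2 and 0.68 without Control 1. Over coding transcripts alone it was 0.0849. SEMA4B, SEMA4C, SEMA4G, SEMA5A and SEMA6D also overlapped, with log2 changes from −0.25 to 0.22. SEMA4A, SEMA4D, SEMA5B and SEMA6A were below the limit at no more than 0.393 FPKM in any library. PLXNC1, the plexin that binds SEMA7A, was below it too.

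Of 7 tested plexins, 3 (42.9%) were higher in every LPS library, against 8.68% of all tested genes, and the difference in shares was not tested. PLXNB1, the receptor of SEMA4D, stood at 4.58, 5.02 and 4.61 FPKM in LPS libraries and at 3.39, 4.12 and 3.58 FPKM in Control libraries, without overlap. Its log2 change was 0.32 (SE 0.13, limma adjusted p = 0.449). Summing coding transcripts alone gave a log2 change of 0.0136, so the PLXNB1 difference was not carried by the coding transcripts. PLXNB1-214, a retained-intron transcript of 576 bases named after its values were seen, was at 0.932, 0.808 and 0.449 FPKM in LPS libraries and at 0.111, 0.334 and 0.135 FPKM in Control libraries.

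PLXNA2, a receptor of class 6 semaphorins and a co-receptor for the SEMA3 class, stood at 20.4, 23.4 and 24.0 FPKM in LPS libraries and at 18.8, 19.9 and 17.8 FPKM in Control libraries. The groups did not overlap, with LPS 1 close to Control 2, and the log2 change was 0.25 (SE 0.11, limma adjusted p = 0.467). PLXNA3, which pairs with neuropilins for SEMA3 ligands, stood at 12.0, 12.5 and 13.6 FPKM in LPS libraries and at 12.0, 11.1 and 11.6 FPKM in Control libraries. LPS 1 exceeded Control 1 by less than the rounding, and its log2 change was 0.13 (SE 0.10, limma adjusted p = 0.709), or 0.03 over coding transcripts alone and 0.0770 without LPS 3.

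The 2 most abundant plexins overlapped between groups. PLXND1 was at 67.1, 67.7 and 84.6 FPKM in LPS libraries and at 62.3, 70.5 and 60.1 FPKM in Control libraries (log2 change 0.18, SE 0.12, limma adjusted p = 0.656). LPS 3 stood highest, and without it the PLXND1 change was 0.0695. PLXNB2 was at 70.5, 77.8 and 61.7 FPKM in LPS libraries and at 56.6, 79.7 and 65.6 FPKM in Control libraries (log2 change 0.07, SE 0.15, limma adjusted p = 0.907). PLXNA1 and PLXNB3 also overlapped, and PLXNA4 and PLXNC1 were below the limit at no more than 0.354 FPKM in any library. Summed plexin FPKM was 208, 219 and 222 in LPS libraries and 184, 222 and 192 in Control libraries, with Control 2 as high as LPS 3.

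ROBO4 was the member with the lowest p. ROBO4 (ENSG00000154133, GRCh38 chr11:124883691-124898500), the endothelial ROBO receptor that binds UNC5B and is known for stabilising vessels, stood at 37.3, 40.2 and 36.5 FPKM in LPS libraries and at 28.1, 29.2 and 22.4 FPKM in Control libraries. Every LPS library was above every Control library, and the gap between the groups was wider than the spread within either. The means were 38.0 ± 1.96 FPKM with LPS and 26.6 ± 3.64 FPKM in Controls (SD, n = 3 each). The log2 change was 0.52 (SE 0.12, limma adjusted p = 0.255).

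Most of ROBO4 lay in ROBO4-201, its main coding transcript, at 32.6, 29.9 and 28.7 FPKM in LPS libraries and at 20.9, 20.0 and 14.0 FPKM in Control libraries (log2 change 0.74, SE 0.18, limma adjusted p = 0.488). The second transcript, ROBO4-208, overlapped at 2.18, 7.27 and 3.88 FPKM with LPS and 2.56, 7.44 and 7.16 FPKM in Controls. The antisense gene AP003501.1 overlaps ROBO4 and was at 3.88, 5.60 and 3.50 FPKM in LPS libraries and at 2.57, 3.25 and 1.74 FPKM in Control libraries, also without overlap (log2 change 0.68, limma adjusted p = 0.461 in the table of all genes). With no counting strand given, the reads of ROBO4 and this gene cannot be told apart where they overlap. ROBO3, which ends 2220 bases from ROBO4 on chromosome 11, had a log2 change of −0.01, and 0.57% of its FPKM came from coding transcripts.

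Of the 12 endothelial markers, 11 had a positive log2 change, against 47.8% of all tested genes, and the groups did not overlap for 5 (41.7%, against 17.4%). At an unadjusted p under 0.05, 2 of the 12 were higher with LPS, against 5.13% of all tested genes, and 0 lower. These were the claudin CLDN5 and the angiopoietin receptor TEK. CLDN5 was at 29.5, 31.8 and 36.6 FPKM in LPS libraries and at 18.5, 21.7 and 13.6 FPKM in Control libraries. TEK was at 8.45, 7.25 and 8.36 FPKM in LPS libraries and at 5.82, 5.78 and 5.01 FPKM in Control libraries. The junction cadherin CDH5 overlapped, at 105, 84.6 and 70.9 FPKM with LPS and 88.2, 93.7 and 64.1 FPKM in Controls, and the part of these markers in the ROBO4 difference was not tested.

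**Figure D3:**
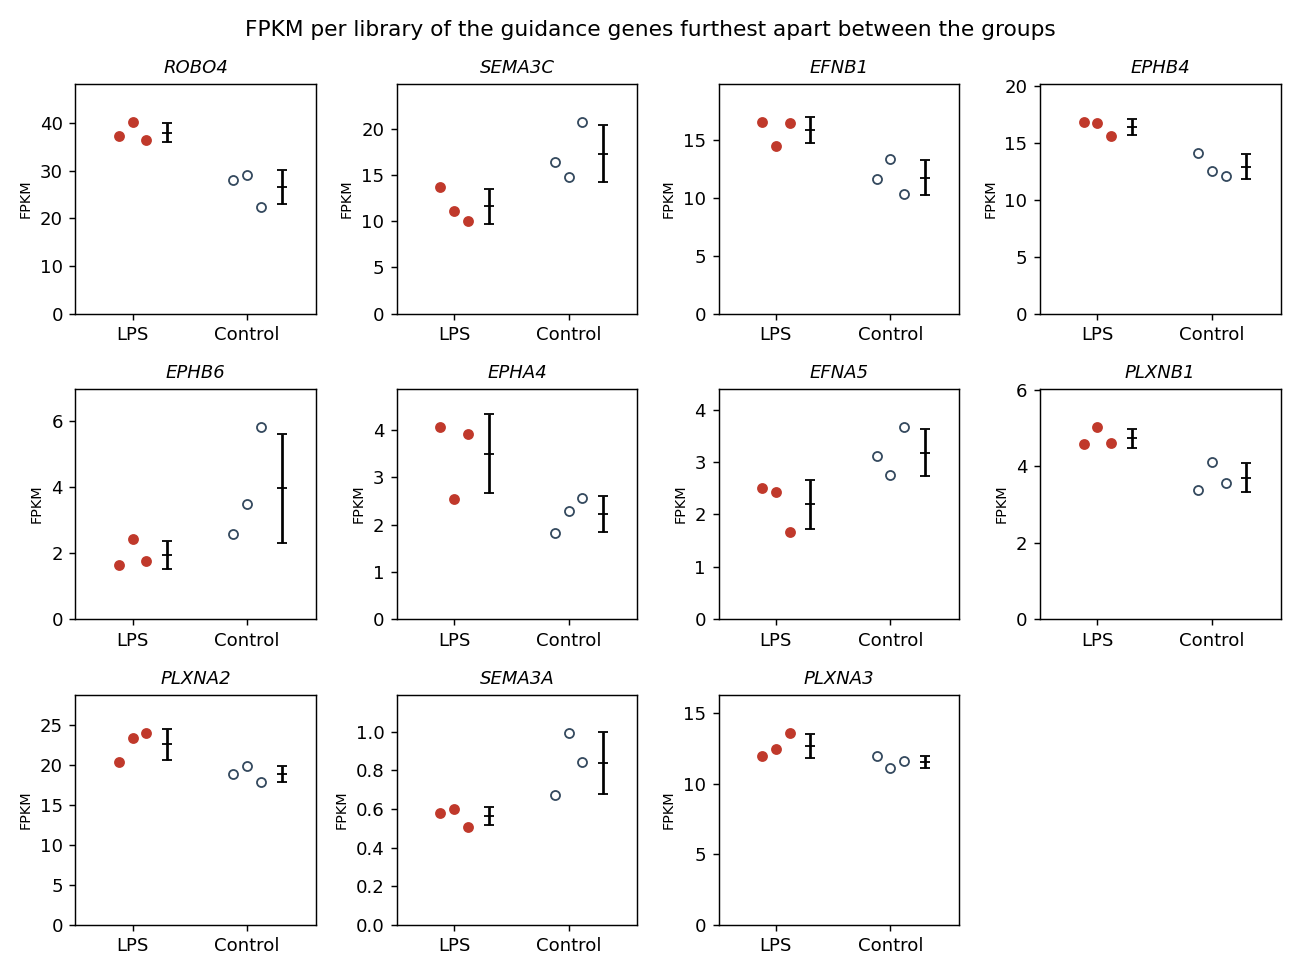
FPKM per library of the 11 guidance genes that were at an unadjusted p under 0.05 or did not overlap between groups and were tested, with LPS left and Control right and bars for mean ± SD (n = 3 each). ROBO4 shows all 3 LPS libraries above 36 FPKM and all 3 Control libraries below 30 FPKM, while EPHA4 overlaps at LPS 2.

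ROBO1, a receptor of SLIT2, stood at 17.7, 15.2 and 16.0 FPKM in LPS libraries and at 15.1, 13.5 and 26.8 FPKM in Control libraries. Control 3 was far above the other 5 libraries, and the log2 change was −0.11 (SE 0.24, limma adjusted p = 0.904). Its transcripts, named after their values were seen, changed place from library to library. ROBO1-209 was listed at 9.64, 0 and 9.19 FPKM in LPS libraries and at 6.74, 0 and 14.9 FPKM in Control libraries, while ROBO1-212 was at 12.7 FPKM in Control 2 and ROBO1-204 at 9.92 FPKM in LPS 2. An assembled transcript absent from GENCODE 29, TCONS_00251075, was at 6.85 FPKM in Control 3. It was at no more than 0.0261 FPKM in any other library. The ligand SLIT2 overlapped, at 12.9, 13.7 and 10.7 FPKM with LPS and 14.3, 8.97 and 14.0 FPKM in Controls. SLIT1, SLIT3 and ROBO2 were below the limit at no more than 0.340 FPKM in any library.

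UNC5B, a netrin receptor known from endothelial tip cells in the mouse, and a partner of ROBO4, stood at 25.2, 31.8 and 37.1 FPKM in LPS libraries and at 23.6, 46.5 and 28.2 FPKM in Control libraries. Control 2 was the highest of all 6 and the groups overlapped (log2 change −0.02, SE 0.25, limma adjusted p = 0.986). The antisense gene UNC5B-AS1 was also highest in Control 2, at 6.58, 14.4 and 13.4 FPKM in LPS libraries and 7.36, 17.9 and 8.37 FPKM in Control libraries. UNC5A and UNC5C were below the limit at no more than 0.514 FPKM in any library, and UNC5D was listed at 0 in all 6.

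At the level of transcripts, 48 of 273 protein-coding transcripts of the members were tested, from 31 genes. By limma 0 of the 48 passed an adjusted p of 0.05, against 26 of 20563 transcripts (0.126%). The unadjusted p was under 0.05 in 4, against 6.44% of all tested transcripts, and 8 did not overlap between groups, against 13.8%. In data simulated from all tested transcripts, the adjusted threshold called 0% of log2 changes of 1 and 13.75% of those of 2. That 0 of the 48 passed therefore says little about changes of that size. EFNB1 has 1 transcript in the table, which carries all its FPKM. SEMA3C-201 was at 11.8, 10.7 and 8.45 FPKM in LPS libraries and at 14.6, 12.8 and 17.5 FPKM in Control libraries, lower in every LPS library as the gene was (log2 change −0.52, limma adjusted p = 0.735). PLXNA2-201 was at 18.3, 20.7 and 20.5 FPKM in LPS libraries and at 16.4, 17.7 and 15.1 FPKM in Control libraries.

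For EPHB4, EPHB6, EFNA5 and PLXNB1 the gene value was split over transcripts that varied between libraries. EPHB4-206, a retained-intron transcript named after its values were seen, held 57.9% of EPHB4 FPKM, at 10.8, 11.3 and 6.69 FPKM in LPS libraries and at 7.87, 6.64 and 7.70 FPKM in Control libraries. The coding EPHB4-201 was at 5.74, 3.98 and 8.55 FPKM in LPS libraries and at 5.57, 5.20 and 3.85 FPKM in Control libraries. LPS 3 was thus the lowest LPS library for the retained-intron form and the highest for the coding one, and neither transcript separated the groups as the gene did. EPHB6-212 was at 1.09, 1.04 and 0 FPKM in LPS libraries and at 1.85, 2.34 and 0.717 FPKM in Control libraries, while EPHB6-206, also chosen after its values were seen, was listed at 2.25 FPKM in Control 3 and at 0 in the other 5 libraries. EFNA5-201 overlapped, at 0.877, 0.207 and 0.870 FPKM with LPS and 0.421, 0.963 and 1.14 FPKM in Controls. PLXNB1-202 overlapped as well, at 1.78, 2.30 and 2.97 FPKM with LPS and 2.11, 1.63 and 1.32 FPKM in Controls.

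**Figure D4:**
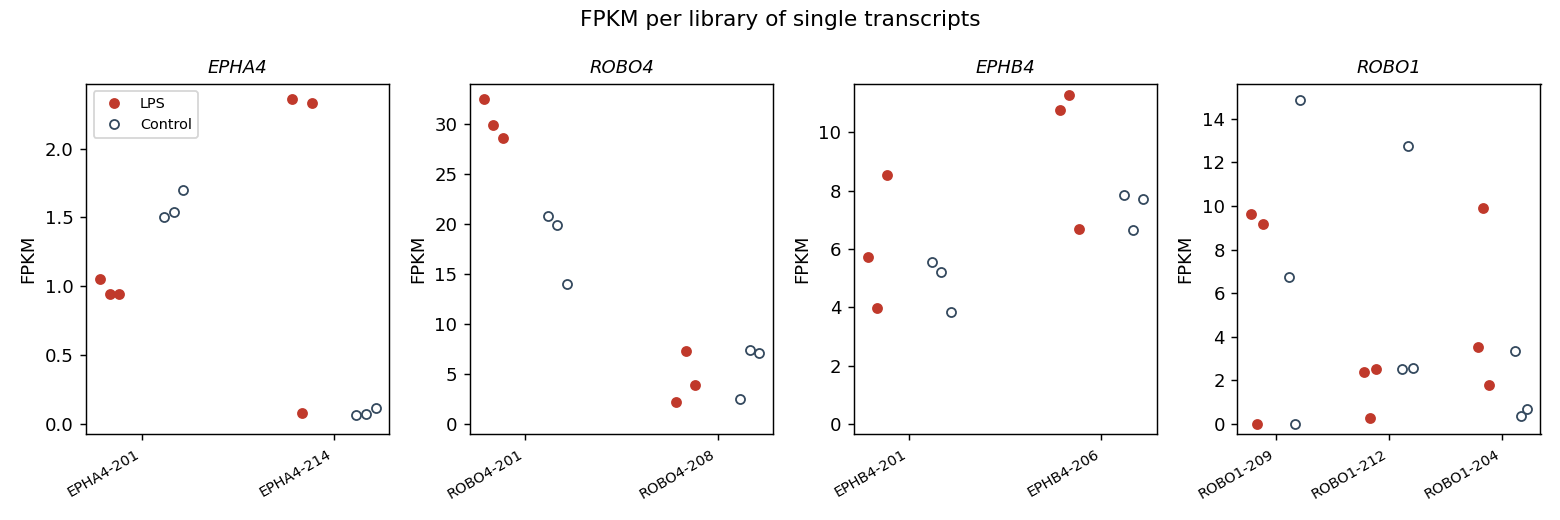
FPKM per library of single transcripts of EPHA4, ROBO4, EPHB4 and ROBO1, with filled points for LPS 1 to 3 and open points for Control 1 to 3, each in that order from left to right. EPHA4-201 is lower in all 3 LPS libraries while EPHA4-214 is high in LPS 1 and LPS 3, ROBO4-201 is higher in all 3 LPS libraries, and the ROBO1 transcripts alternate between libraries.

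All 62 members were found in GENCODE 29, 31 with the same start and end, and 32 overlap a gene on the opposite strand. That gene averaged at least 0.5 FPKM for 18 of them, and to that extent their levels are uncertain.

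Genes that work with the guidance receptors were listed in 6 groups, 102 genes in all, of which 78 were tested. By limma 0 of the 78 passed an adjusted p of 0.05. Before adjustment 7 were higher and 3 lower with LPS at p under 0.05 (12.8%, against 10.4% of all tested genes), and 17 did not overlap between groups (21.8%, against 17.4%). The median log2 change over the 78 was 0.07, with 50 positive.

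Of 9 tested co-receptors of semaphorins and VEGF, 2 were higher and 0 lower at an unadjusted p under 0.05. That is 22.2%, against 10.4% of all tested genes. NRP2, the neuropilin that receives SEMA3F and SEMA3C, was at 20.0, 18.7 and 17.5 FPKM in LPS libraries and at 17.5, 14.1 and 13.1 FPKM in Control libraries (log2 change 0.33, limma adjusted p = 0.449). The other was the VEGF receptor FLT1. The co-receptor ITGB1, the most abundant of the list, was at 389, 370 and 334 FPKM in LPS libraries and at 387, 401 and 447 FPKM in Control libraries, which overlapped. Of 5 tested netrin, RGM and FLRT ligands and receptors, the ligand NTN4 was higher and the receptor NEO1 lower at that p. Together they made up 40%, against 10.4% of all tested genes.

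Among intracellular partners of Eph receptors and ephrins, 2 of 20 were higher and 0 lower at an unadjusted p under 0.05. That is 10%, against 10.4% of all tested genes. They were the tyrosine kinase SRC and the exchange factor ARHGEF15. SRC was at 10.1, 8.88 and 11.0 FPKM in LPS libraries and at 7.80, 7.48 and 6.80 FPKM in Control libraries, without overlap (log2 change 0.42, limma adjusted p = 0.337). Of 7 tested sheddases of Eph receptors and ephrins, ADAM9 alone was lower and 0 were higher at that p (14.3%, against 10.4%). It was at 96.9, 94.7 and 96.8 FPKM in LPS libraries and at 111, 112 and 125 FPKM in Control libraries (log2 change −0.26, limma adjusted p = 0.364). MMP14, a membrane metalloproteinase, overlapped at 449 ± 13.9 FPKM with LPS and 411 ± 33.0 FPKM in Controls (SD, n = 3 each).

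Of 24 tested plexin partners, DPYSL4 was higher and CDK5 lower at an unadjusted p under 0.05 (8.33%, against 10.4% of all tested genes). The actin-severing cofilin CFL1 was the most abundant of them and varied widely within each group, at 217, 509 and 304 FPKM in LPS libraries and at 506, 541 and 264 FPKM in Control libraries. Of 13 tested ROBO and UNC5 partners, SRGAP2, a GTPase-activating protein of a family that binds ROBO receptors, was higher and 0 were lower at that p. That is 7.69%, against 10.4% of all tested genes. SRGAP2 was at 27.2, 25.7 and 26.4 FPKM in LPS libraries and at 21.5, 19.6 and 22.6 FPKM in Control libraries, without overlap (log2 change 0.31, limma adjusted p = 0.345). SRGAP2 has near-identical copies in the human genome, so its level is uncertain.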

How the data were processed

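RNA abundance was measured by RNA-seq in 3 LPS and 3 Control libraries. The deposited tables hold FPKM per gene or transcript, calculated by the authors, per the file headers. The submitters' processing notes name HISAT2 and StringTie with no version. They also name the mouse build mm9, whereas the files carry human Ensembl identifiers at GRCh38 coordinates. How fragments were counted, on which strand and with which options is not given in the sources used here. Whole reads could not be recovered from the FPKM values (8.20% to 16.0% of values of single-exon genes were whole multiples of a step, tolerance 0.02), so depth is unknown and limits the precision to an unknown extent. Of the tables, 4 were used, and the table of long noncoding transcripts was left out. All 62 members had equal FPKM in the tables of protein-coding genes and of all genes.

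A feature entered the test if it averaged 0.5 FPKM or more across the 6 libraries. Limma 3.58.1 (R 4.3.3) was fitted to log2(FPKM + 0.5) with group as the sole term and moderated by eBayes with a trend. Two-sided p-values were adjusted by the Benjamini-Hochberg method over all tested features of a table, with a threshold of 0.05. Log2 changes on this scale understate those of low genes. The test was tried on simulated data first. Members and gene lists were chosen with earlier results of these data known. Named members are the 2 most abundant and the 2 of largest change per role, those at an unadjusted p under 0.05 and those whose groups do not overlap. Of the other pathway genes, the rule names the 3 of lowest p and the 3 most abundant, and further ones are named where a count is 5 or fewer, after their values were seen. For members at an unadjusted p under 0.05 it names the 2 most abundant coding transcripts. Alternatives were pseudocounts of 0.1 and 1, no filter, a minimum of 1 FPKM, median-of-ratios rescaling, quantile normalization, array weights, robust eBayes, a replicate block, the table of all genes, coding transcripts summed, and leaving out each library. Sequences are from RefSeq (GRCh38.p14) and GENCODE 29. Start regions lying mostly in a GENCODE UTR are not shown.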

Additional observations from a re-analysis of the deposited data

How the results depend on the processing

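No member passed an adjusted p of 0.05 under any alternative run, and the lowest limma adjusted p among members ranged from 0.230 to 0.520. The count of members at an unadjusted p under 0.05 was 9 and ranged from 5 to 9 when single libraries were left out. It was 5 both without Control 1 (14.3%, against 9.91% of all tested genes) and without LPS 3 (14.3%, against 10.1%). It was 6 without Control 3 (16.7%, against 7.59%), and 7 without LPS 1 (19.4%, against 8.61%) and without LPS 2 (19.4%, against 10%). Without a filter, 11 of 59 members (18.6%) were at that p, against 9.72% of all tested genes. The count of all protein-coding genes past the adjusted threshold was 7, fell to 0 both without a filter and with the replicate block, and ranged from 0 to 8 when single libraries were left out, namely 0 without Control 2 and without LPS 2, 2 without LPS 3, 4 without Control 1, 5 without Control 3 and 8 without LPS 1. With 0 called, 1563 genes without a filter and 1451 genes with the block had an unadjusted limma p under 0.05.

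Of 650 comparisons of a single gene's or transcript's log2 change with its value under an alternative, 635 kept direction and side of the threshold and 15 reversed. Much of this was fixed in advance, so the counts do not measure robustness. None of these genes or transcripts had passed the threshold. The filter settings, robust eBayes, the replicate block and the table of all genes cannot move a log2 change. EPHA4 reversed to −0.14 without EPHA4-214. Leaving out single libraries reversed the log2 change of EFNB2 (−0.11 to 0.15), EPHB2 (−0.26 to 0.0787), PLXNB2 (−0.0517 to 0.19), ROBO1 (−0.30 to 0.19), SEMA7A (−0.38 to 0.0889), UNC5B (−0.22 to 0.26), EFNA5-201 (−0.49 to 0.0769), EPHB4-201 (−0.00945 to 0.50) and ROBO4-208 (−0.79 to 0.0307). The causes were not tested, beyond the removal of EPHA4-214 itself. The EFNB2 to EPHB4 ratio difference ranged from −0.43 to −0.14. ROBO4 kept a log2 change of 0.40 to 0.59 throughout.

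The replicate numbers are not shown to pair the libraries, since deviations of same-numbered libraries correlated at 0.0175 to 0.105, not above 0.1 in every pair, although 5 of 6 libraries correlated best with their own number. With the replicate block, 9 members were at an unadjusted p under 0.05 and 0 past the adjusted threshold, as without it. With the block, these 9 were 25% of tested members, against 12% of all tested genes. The unknown depth limits every level near the 0.5 FPKM filter.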
